A study of Homo sapiens with 6 samples.

Results

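Osteoblast identity genes were examined in U2OS, a line derived from a human osteosarcoma, for the chromatin positions of a tagged form of the protease MMP-2. The 9 genes were chosen by name as regulators and products of osteoblasts, and they are 9 of the 20163 protein coding genes of GENCODE on GRCh37. RUNX2, SP7, DLX5 and MSX2 encode transcription factors, and ALPL, SPP1, IBSP, BGLAP and SPARC encode an enzyme and matrix proteins. Together they have 51 annotated transcription start sites (TSSs), and a gene was counted as marked when a region lay within 1 kb of any of its TSSs.

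The study performed native ChIP-Seq (nChIP-Seq), in which uncrosslinked nucleosomes released by micrococcal nuclease are immunoprecipitated, on cells grown to 2 days beyond confluence. The ProMMP2-3xHA cells are a stable lentiviral line that constitutively expresses full-length pro-MMP-2 with 3 HA tags at its C-terminus, in addition to the cells' own MMP-2, and WT cells carry no tag. The 6 samples formed 4 groups, namely 3 biological replicates of HA in ProMMP2-3xHA cells, and single libraries of H3K4me3 in ProMMP2-3xHA cells, of H3K4me3 in WT cells and of HA in WT cells. Peak lists of the first 3 groups and 1 merged list of the HA replicates were used, while HA in WT cells entered as the control of the HA peaks, by the names of the lists. Whether the stable line is a clone or a pool is not given in the sources used here, and U2OS is a tumour line, so it does not stand for normal osteoblasts.

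Osteoblasts are the cells that build bone. RUNX2 commits mesenchymal progenitors to this lineage, SP7 acts downstream of RUNX2, and mature osteoblasts then secrete and mineralize a collagen matrix that holds osteopontin, bone sialoprotein, osteocalcin and osteonectin. H3K4me3 marks the nucleosomes around TSSs of active genes, and also those of many CpG-rich genes that are poised, so its presence is no measure of transcript level, which was not measured in the files used here.

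The genes separated into 3 patterns. H3K4me3 lay near a TSS of RUNX2, SP7, MSX2 and SPARC in both cell lines, which is 4 of 9 genes against 63.2% of all protein coding genes (63.6% for the ProMMP2-3xHA and 67.2% for the WT list alone). DLX5, ALPL, SPP1, IBSP and BGLAP had H3K4me3 near a TSS in neither line, 5 of 9 against 32.4% of all genes. MSX2 and SP7 had an HA peak near a TSS in at least 1 list, and 7 of 9 genes had none in any list, against 59.2% of all genes. Of this pair MSX2 was in the merged HA list, 1 of 9 against 32.4% of all genes. A peak of every replicate lay near a TSS of 0 of 9 genes, against 19.2% of all genes, and replicate 1 held none at any of the 9.

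**Figure D1:**
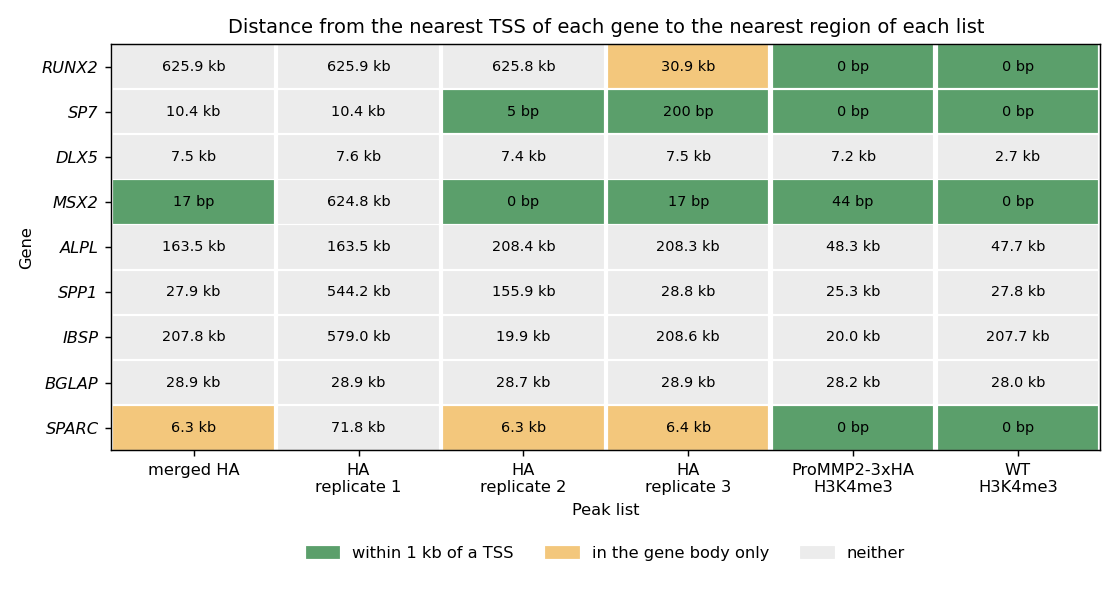
Distance from the nearest TSS of each gene (rows) to the nearest region of each peak list (columns), in bp or kb. Green cells are regions within 1 kb of a TSS, yellow cells are regions in the gene body only, and grey cells are neither. MSX2 is green in 5 of 6 lists and grey in HA replicate 1, where the nearest peak lay 624753 bp away.

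Sequences on GRCh37 are shown for the regions on which these patterns turn, 5′ to 3′. For MSX2, the promoter (chr5:174151435-174151584, plus strand) and the coding stretch under the HA peak (chr5:174151663-174151787, plus strand, from the start codon) are given. For SP7, the intronic part of the HA peak of replicate 3 (chr12:53738729-53738897, minus strand, in the direction of transcription) is given. The intergenic HA peak downstream of DLX5 is shown around its summits (chr7:96646117-96646338, plus strand). Capitals mark 3 short motifs, read on either strand, which do not overlap each other in the printed stretches. TGTGGT is the core bound by RUNX factors. TATAAA is the TATA box of many tissue-specific promoters. GGGCGG is the GC box that SP factors can bind.
MSX2 promoter: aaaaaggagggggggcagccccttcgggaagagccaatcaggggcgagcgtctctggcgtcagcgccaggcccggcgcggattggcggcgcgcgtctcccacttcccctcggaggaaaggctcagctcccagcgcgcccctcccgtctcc
MSX2 coding stretch under the HA peak: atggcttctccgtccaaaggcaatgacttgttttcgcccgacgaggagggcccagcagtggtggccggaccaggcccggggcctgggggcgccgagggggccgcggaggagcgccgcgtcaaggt
SP7 intronic HA peak: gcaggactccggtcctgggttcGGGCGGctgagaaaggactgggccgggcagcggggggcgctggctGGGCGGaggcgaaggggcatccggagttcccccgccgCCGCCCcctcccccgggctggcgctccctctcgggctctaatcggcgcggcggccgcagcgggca
DLX5 downstream HA peak: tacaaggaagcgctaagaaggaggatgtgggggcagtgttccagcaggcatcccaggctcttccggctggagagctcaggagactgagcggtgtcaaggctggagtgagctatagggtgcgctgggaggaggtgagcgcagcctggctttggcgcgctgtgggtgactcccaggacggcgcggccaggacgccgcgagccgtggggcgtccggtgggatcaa

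The printed MSX2 and DLX5 stretches held none of the 3 motifs, whereas the SP7 peak held 3 GC boxes. The MSX2 promoter held 16 CpG dinucleotides in 150 bases and the SP7 peak 21 in 169 bases.

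For comparison, promoters of unmarked genes are given as the 150 bases before the first TSS of ALPL (chr1:21835740-21835889), BGLAP (chr1:156211825-156211974), SPP1 (chr4:88896669-88896818) and IBSP (chr4:88720556-88720705), all on the plus strand. RUNX2, which had H3K4me3 but no HA peak near a TSS, is shown by the same window at its distal promoter (chr6:45295744-45295893, plus strand) and by 30 bases just downstream of its canonical TSS (chr6:45296077-45296106, plus strand).
ALPL promoter: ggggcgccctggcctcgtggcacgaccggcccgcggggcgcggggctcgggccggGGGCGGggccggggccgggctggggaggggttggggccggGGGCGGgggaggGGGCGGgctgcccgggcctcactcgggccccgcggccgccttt
BGLAP promoter: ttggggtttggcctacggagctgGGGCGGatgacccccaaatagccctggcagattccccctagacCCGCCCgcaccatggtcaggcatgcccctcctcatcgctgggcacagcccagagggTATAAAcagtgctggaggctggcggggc
SPP1 promoter: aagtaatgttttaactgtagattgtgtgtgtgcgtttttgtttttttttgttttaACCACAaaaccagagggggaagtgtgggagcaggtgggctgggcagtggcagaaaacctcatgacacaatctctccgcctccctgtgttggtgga
IBSP promoter: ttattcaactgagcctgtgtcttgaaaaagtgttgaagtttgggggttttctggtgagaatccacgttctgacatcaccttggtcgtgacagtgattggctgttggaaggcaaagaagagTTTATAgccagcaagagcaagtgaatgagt
RUNX2 distal promoter: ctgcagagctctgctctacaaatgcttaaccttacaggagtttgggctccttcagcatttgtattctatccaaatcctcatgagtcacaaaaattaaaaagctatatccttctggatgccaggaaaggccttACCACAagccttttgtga
RUNX2 downstream of the canonical TSS: caaacaACCACAgaACCACAagtgcggtgc

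These promoters differ in base composition. The RUNX2 distal promoter held no CpG in 150 bases and the SPP1 and IBSP promoters held 2 each, against 6 at BGLAP and 21 at ALPL. ALPL showed 3 GC boxes, BGLAP a TATA box with 2 GC boxes, and IBSP a TATA box on the minus strand.

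The depth behind these calls was recovered for the HA libraries only. Mean coverage was 4.74, 4.34 and 4.23 HA fragments per base (replicates 1, 2 and 3), against 1.33, 1.55 and 1.41 of the HA control. The samples hold 1 library of HA in WT cells. The paper also shows replicates of the WT control, and the control coverage above differed between the HA replicates. Whether replicates shared a control library was not tested. If any did, their fold enrichments are not fully independent. Fold enrichment is the HA signal over the local control, after HA was scaled to the depth of the control and 1 was added to both. Where the background was at its genome-wide level, a called summit had at least 29, 23 and 24 fragments (replicates 1, 2 and 3). A site absent from a list was one not detectable at this depth and threshold. In these bulk libraries, fewer cells with a protein at a site and fewer molecules per cell cannot be told apart.

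MSX2 was the gene with an HA peak at its promoter in the merged list. MSX2 encodes a homeobox factor of the BMP pathway that acts in skull and limb bone. The gene lies on chromosome 5 (174151585-174157899, plus strand, 6315 bp) with 2 exons and 2 TSSs. The merged HA peak (174151622-174151787, 166 bp) began 37 bp downstream of the canonical TSS, and its centre lay in the coding sequence of exon 1.

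The values of the replicates at MSX2 were as follows. Replicate 2 had a peak of 494 bp (174151309-174151802) that covered the TSS, with 32 fragments at the summit, a fold enrichment of 4.87 over the control background and a q-value of 0.000119. Replicate 3 had a peak of 175 bp (174151622-174151796) with 30 fragments, a fold enrichment of 4.56 and a q-value of 0.000651. The summits of both replicates fell in the coding sequence of exon 1, at 174151714 and 174151711. Replicate 1 had no peak there.

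The MSX2 peaks were lower than the median peak near TSSs in both lists that held them. Their 32 and 30 fragments were also below the medians over all summits, 44 in replicate 2 and 41 in replicate 3. Relative to the median of the peaks near TSSs in the same list (5.45 in replicate 2 and 4.84 in replicate 3), log2 fold enrichment was −0.16 and −0.08, with a mean of −0.12 ± 0.05 (SD, n = 2). A sign permutation over 2 values was not run. In replicate 2, 36.1% of peaks near TSSs were lower, and in replicate 3, 41.3%. The merged peak was narrow, with 6.17% of merged peaks narrower. Another peak of replicate 3 lay 12591 bp from the nearest TSS, beyond the 3′ end, with a fold enrichment of 3.87.

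H3K4me3 covered the same start of MSX2 in both lines. The ProMMP2-3xHA region was 1429 bp long (174151649-174153077) and began 44 bp downstream of the nearest TSS. The WT region was 2152 bp long (174151057-174153208) and covered both TSSs, so it was 1.51 times as wide. Over all 13882 pairs of regions that overlapped 1 to 1, the median width was 1248 bp in ProMMP2-3xHA and 1664 bp in WT, the median ratio was 1.3, and 91.8% were wider in WT. A lower ratio than that of MSX2 was found in 68.9% of the pairs. The lists hold no value from which the depth of either H3K4me3 library could be computed. Each line also had a small region about 3 kb further upstream, 296 bp in ProMMP2-3xHA and 307 bp in WT.

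**Figure D2:**
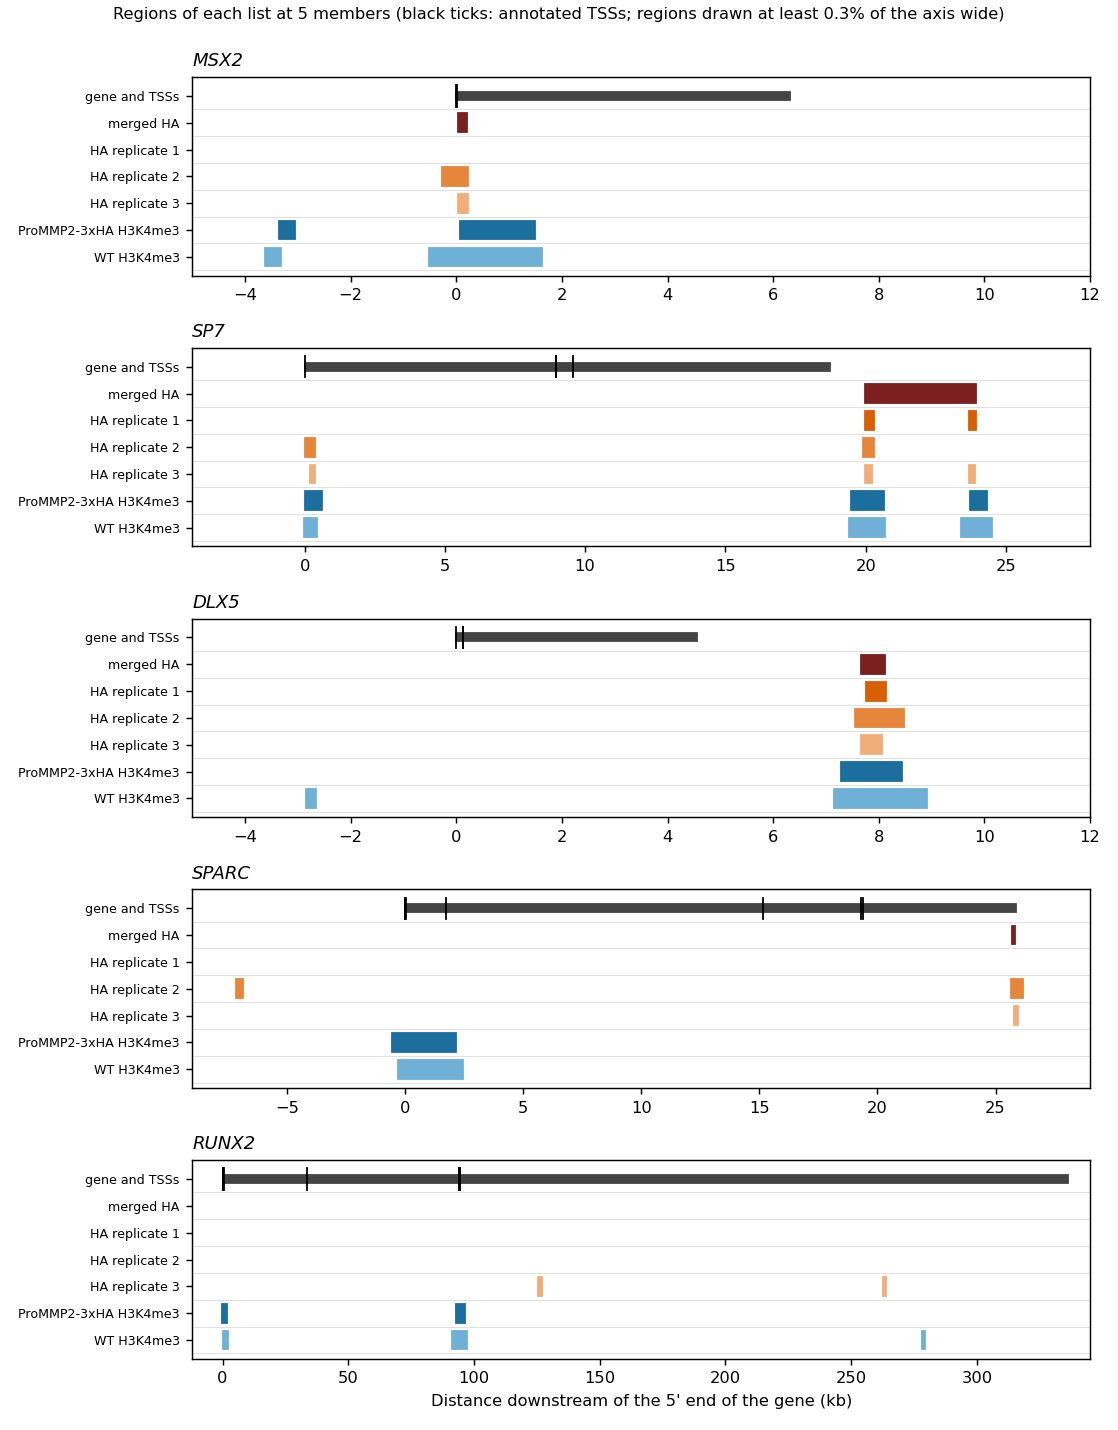
Regions of the 6 peak lists at MSX2, SP7, DLX5, SPARC and RUNX2, plotted against the distance downstream of the 5′ end of each gene in kb. Dark bars are genes, black ticks TSSs, red and orange boxes HA peaks and blue boxes H3K4me3 regions. HA boxes lie at the start of MSX2 and SP7, beyond the 3′ end of DLX5, at the 3′ end of SPARC and only in introns of RUNX2.

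SP7 was the second gene with HA near a TSS, and the signal was at its distal TSS. SP7 encodes osterix, a zinc finger factor that osteoblasts need to mature. The gene lies on chromosome 12 (53720359-53739099, minus strand, 18741 bp). Of its 4 TSSs, only the one at 53739099, used by 1 transcript, had H3K4me3 or HA. The canonical TSS at 53730138 and its 2 neighbours had neither.

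Replicate 2 had a peak of 381 bp (53738714-53739094) 5 bp from the distal TSS of SP7, with 35 fragments, a fold enrichment of 4.15 and a q-value of 0.000732. Replicate 3 had a peak of 171 bp (53738729-53738899) 200 bp from the distal TSS, with 32 fragments, a fold enrichment of 4.18 and a q-value of 0.00448. The summit of replicate 2 lay in the 5′ UTR in exon 1 of this transcript and that of replicate 3 in its intron 1. Replicate 1 and the merged list had no peak within 1 kb of any SP7 TSS. Relative to the median near TSSs, log2 fold enrichment was −0.39 and −0.21, a mean of −0.30 ± 0.13 (SD, n = 2).

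Peaks of replicates 2 and 3 without one of replicate 1, the state of both MSX2 and SP7, were found near TSSs of 2 of the 9 genes and of 6.45% of all protein coding genes. Taken singly, replicates 2 and 3 each had a peak near TSSs of 2 of 9 genes, against 32.3% and 32.8% of all genes, and replicate 1 of 0 of 9, against 23.9%. Replicate 1 also held fewer peaks (6401, against 9193 and 8933). The part of this difference in the absence of MSX2 and SP7 from replicate 1 was not tested.

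H3K4me3 at the distal SP7 TSS was 623 bp wide in ProMMP2-3xHA (53738479-53739101) and 463 bp wide in WT (53738671-53739133). The WT region was the narrower one, with a ratio of 0.743, and 1.46% of all pairs had a lower ratio. With 1 library per line there is no test of this difference.

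The nearest merged HA peak to SP7 lay beyond its 3′ end, 1229 bp away, at the TSSs of AAAS, which encodes a nuclear pore protein. It was 3955 bp wide (53715176-53719130). The merged peak spans separate sites of the replicate lists. At the site nearer to SP7, where every replicate had a peak, the fold enrichment was 4.73, 5.20 and 3.87 over replicates 1 to 3, averaging 4.6 ± 0.673 (SD, n = 3). Replicate 2 exceeded its peak at the distal SP7 TSS and replicate 3 did not. Against the median near TSSs in each list, log2 fold enrichment at this site was −0.05, −0.07 and −0.32, below 0 in 3 of 3 replicates. These values were picked as the weakest peak of the merged region in each list, a choice that favours low ones. A two-sided exact permutation of their signs gave p = 0.25, which therefore cannot decide whether the site is low. With the strongest peak of the region in each list the permutation gave p = 0.5, but those peaks do not all come from the same site. The site farther from SP7 had a peak of replicate 1 (8.74) and replicate 3 (9.41) and none of replicate 2.

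RUNX2 carried H3K4me3 at both of its promoters and no HA peak near a TSS in any list. RUNX2 is the master regulator of osteoblast commitment. The gene lies on chromosome 6 (45295894-45632086, plus strand, 336193 bp) and has 11 TSSs, of which 10 were marked by H3K4me3 in both lines. At the distal promoter, which lies within the gene SUPT3H, the regions were 2000 bp (45295637-45297636) in ProMMP2-3xHA and 2164 bp (45295990-45298153) in WT. At the proximal promoter they were 3419 bp (45388709-45392127) and 5856 bp (45387233-45393088). The proximal regions were among the widest of their lists, with 97.6% and 99.5% of regions narrower, and the WT region was 1.71 times as wide.

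HA peaks in RUNX2 were confined to introns and to replicate 3. These were 45421238-45421476 with 27 fragments, a fold enrichment of 3.33 and a q-value of 0.0457, 45421752-45421930 with 28 fragments, 4.03 fold and a q-value of 0.00786, and 45558692-45558869 with 26 fragments, 4.01 fold and a q-value of 0.0207. All 3 were low for that list, in which 5.24%, 24.7% and 23.5% of the peaks near TSSs were lower. None had a counterpart in replicate 1, replicate 2 or the merged list. A peak of replicate 3 alone in the gene body was found in 5.06% of all genes. The nearest merged HA peak to a RUNX2 TSS was 625915 bp away, and 6.34% of the genes with H3K4me3 in both lines were farther from one.

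DLX5 had neither mark near its 3 TSSs nor in its body. DLX5 encodes a homeobox factor of the BMP pathway that acts upstream of RUNX2 and SP7, and it lies next to DLX6 on chromosome 7 (96649708-96654262, minus strand, 4555 bp). An HA peak of the merged list (96646144-96646603, 460 bp) lay 3105 bp beyond the 3′ end of DLX5 and 7536 bp from its nearest TSS, outside any annotated gene. It was present in every replicate. Replicate 1 had 57 fragments at the summit and a fold enrichment of 3.40 (q-value 0.0101). Replicate 2 had 55 fragments and 4.71 fold (q-value 1.21e-06). Replicate 3 had 48 fragments and 4.17 fold (q-value 8.60e-05).

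The control background at the DLX5 downstream peak was 4, 3.37 and 3.07 control fragments in replicates 1, 2 and 3, above the mean coverage of each, and in replicates 2 and 3 the fragment counts exceeded those at MSX2 while the fold enrichment did not. The mean fold enrichment was 4.09 ± 0.659 (SD, n = 3). Relative to the median near TSSs, log2 fold enrichment was −0.53, −0.21 and −0.21, a mean of −0.32 ± 0.18 (SD, n = 3), and lower in 3 of 3 replicates. The exact sign permutation p was 0.25 (two-sided), which is the smallest that 3 replicates allow. H3K4me3 overlapped this site in both lines, with regions of 1154 bp in ProMMP2-3xHA and 1771 bp in WT, a ratio of 1.53. The HA peak had a GC content of 66.5%. WT cells alone had a further region of 188 bp, 2667 bp upstream of DLX5.

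Among the products, SPARC was the only gene with H3K4me3. SPARC encodes osteonectin, a collagen-binding glycoprotein of bone matrix that many other cell types also make. The gene lies on chromosome 5 (151040657-151066536, minus strand, 25880 bp) and 5 of its 8 TSSs were marked. The H3K4me3 region was 2718 bp (151064384-151067101) in ProMMP2-3xHA and 2751 bp (151064070-151066820) in WT, a ratio of 1.01. The antisense non-coding gene CLMAT3 overlaps these regions. No HA list had a peak near a SPARC TSS.

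HA was instead found at the 3′ end of SPARC, in replicates 2 and 3 and the merged list. The merged peak (151040692-151040839, 148 bp) had its centre in the 3′ UTR in exon 10 of 10. Replicate 2 had a peak of 508 bp (151040371-151040878) with 30 fragments, a fold enrichment of 3.94 and a q-value of 0.00508, and its highest summit (151040504) was just beyond the gene. Replicate 3 had a peak of 163 bp (151040584-151040746) with 29 fragments, 3.82 fold and a q-value of 0.0207. Its summit (151040676), like the highest of replicate 2, lay outside the merged peak. Relative to the median near TSSs, log2 fold enrichment was −0.47 and −0.34, a mean of −0.41 ± 0.09 (SD, n = 2).

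No H3K4me3 region lay at the 3′ end of SPARC in either line. A merged HA peak in the body without one near a TSS was found in 2.79% of all genes. Replicate 2 had another peak, 6868 bp upstream of the gene, with a fold enrichment of 3.68. By gene body, the merged list thus held 2 of 9 genes (MSX2 and SPARC), against 31.2% of all genes. Replicate 1 held 0 of 9, against 22.7%, replicate 2 held 3 (with SP7), against 32.8%, and replicate 3 held 4 (with RUNX2), against 30.4%. H3K4me3 overlapped the bodies of the same 4 genes as at the TSS, against 66.2% of all genes in ProMMP2-3xHA and 68.8% in WT.

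ALPL, SPP1, IBSP and BGLAP had no region of any list near a TSS or in the gene body. ALPL encodes tissue-nonspecific alkaline phosphatase, which frees phosphate for mineral, and lies on chromosome 1 (21835890-21904903, plus strand). SPP1 encodes osteopontin and IBSP bone sialoprotein, acidic phosphoproteins of the matrix whose genes both lie on chromosome 4 (88896819-88904684 and 88720706-88733587, both plus strand). BGLAP encodes osteocalcin, a marker of late osteoblasts, and lies on chromosome 1 (156211975-156213108, plus strand). These 4 genes have 7, 13, 1 and 2 TSSs.

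The nearest merged HA peaks to the unmarked products lay at other genes. For ALPL the distance was 163542 bp, to ECE1, and for BGLAP 28869 bp, to the shared promoter of PMF1 and the read-through gene PMF1-BGLAP, where every replicate had a peak. For SPP1 it was 27940 bp and for IBSP 207793 bp, in both cases to PKD2. The median over protein coding genes was 33732 bp. Near IBSP, replicate 2 alone had an intergenic peak (88740650-88740967, 318 bp) 19944 bp from the TSS with 34 fragments and a fold enrichment of 5.15, and ProMMP2-3xHA cells had an H3K4me3 region of 160 bp at the same place. The other HA lists and the WT list had no region there.

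HA and H3K4me3 at these genes were next read beside each other. Across all protein coding genes, a merged HA peak was near a TSS of 50.6% of the 12737 genes with H3K4me3 in both lines and of 0.964% of the 6536 genes with it in neither. None of the 5 genes without H3K4me3 had HA near a TSS, and 1 of the 4 with it (MSX2) had a merged peak. RUNX2 and SPARC belong to the 36.8% of genes with H3K4me3 in both lines that had no HA peak of any list within 1 kb of a TSS.

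The share of genes with merged HA rose with the width of the widest ProMMP2-3xHA H3K4me3 region near a TSS, from 8.57% of 945 genes under 500 bp to 31.1% of 2519 genes from 500 to under 1000 bp, 53.4% of 6142 genes from 1000 to under 2000 bp and 71.7% of 3208 genes from 2000 bp upwards. SP7 (623 bp) fell in the second class and MSX2 (1429 bp) in the third. RUNX2 (3419 bp) and SPARC (2718 bp) were in the widest class and had no merged peak near a TSS.

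**Figure D3:**
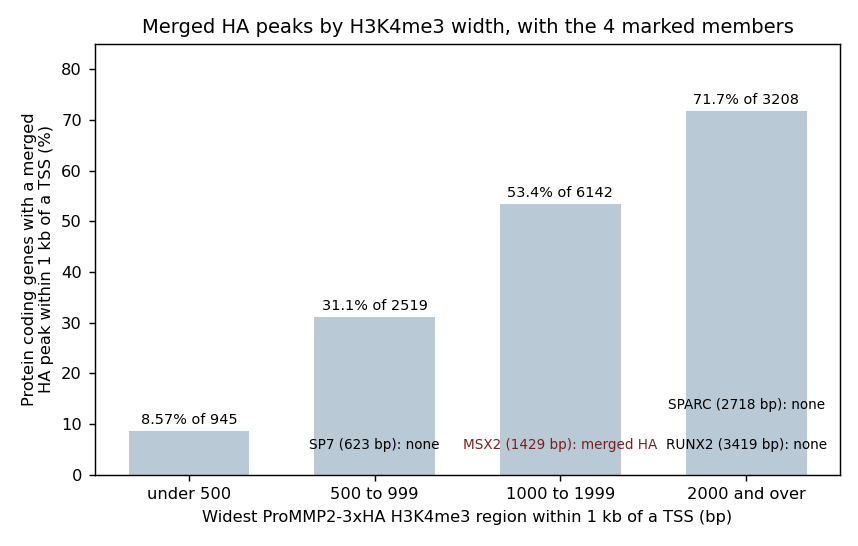
Percent of protein coding genes with a merged HA peak within 1 kb of a TSS (bars), by the width in bp of the widest ProMMP2-3xHA H3K4me3 region near a TSS. The 4 marked genes are written in their class with their width, and RUNX2 and SPARC have no merged HA peak in the class where 71.7% of 3208 genes have one.

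Base composition was counted over 500 bases each side of a TSS. The GC content of the 9 canonical TSSs ranged from 32.3% at IBSP to 71.0% at ALPL, against a median of 61.3% over 20140 genes. The ratio of observed to expected CpG was 0.978 at MSX2, higher than at 97.0% of genes, and 0.703 at DLX5 and 0.755 at ALPL. The other 6 canonical TSSs were CpG-poor, from 0.125 at RUNX2 to 0.312 at SPP1. Genes with merged HA had a median of 0.805 (n = 6055), genes with H3K4me3 but no merged HA 0.782 (n = 6210) and genes with neither 0.314 (n = 7875).

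Alternative promoters of 1 gene differed in composition. RUNX2 had a ratio of 0.125 at the distal and 0.825 at the proximal promoter, and both had H3K4me3. SP7 had 0.279 at the canonical TSS, where neither mark was found, and 0.554 at the distal TSS, where both were. DLX5 and ALPL lay near the median of 0.723 and had no mark. The site downstream of DLX5 had a ratio of 0.744, counted over the 460 bp of the merged HA peak and not around a TSS.

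**Figure D4:**
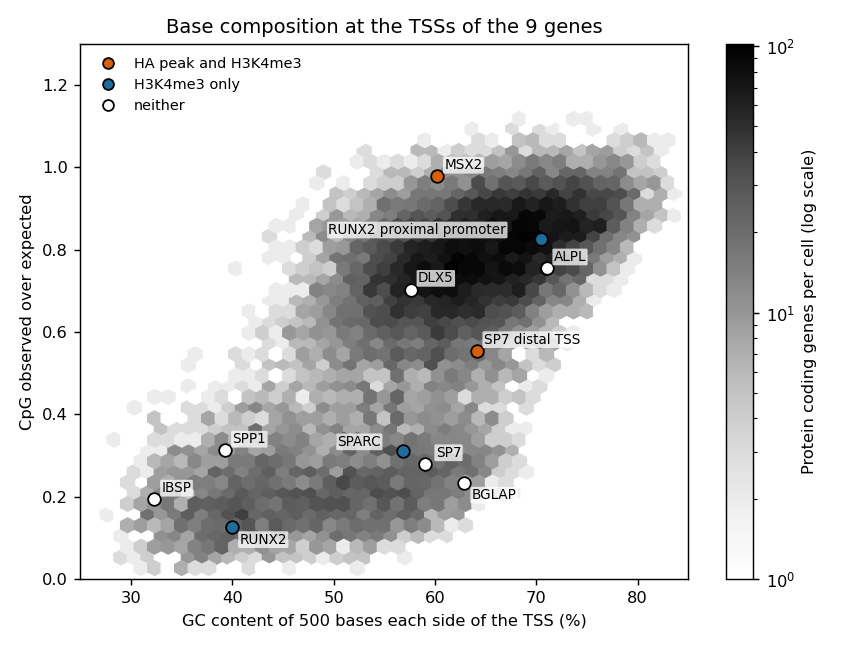
GC content in percent (x axis) and observed over expected CpG (y axis) of 500 bases each side of the TSS. Grey hexagons count protein coding genes on a log scale, and circles are the TSSs of the 9 genes, orange with HA and H3K4me3, blue with H3K4me3 only and white with neither. MSX2 is highest on the y axis at 0.978 and the RUNX2 distal promoter lowest at 0.125.

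Motifs were counted from 250 bases before to 50 bases after each TSS, on both strands. The RUNX core TGTGGT was present in 10.8% of all promoters, TATAAA in 9.81% and GGGCGG in 61.0%. The RUNX2 distal promoter held 4 RUNX cores, all on the minus strand, at positions −191, −87, 17 and 25 from the canonical TSS. BGLAP held 1 RUNX core at position −163, SPP1 held 1 at −142 and the distal SP7 TSS held 1 at −138. TATA boxes were found at BGLAP, IBSP and ALPL, at positions −28, −30 and −29. The letters read in the direction of transcription at BGLAP and on the opposite strand at IBSP and ALPL. GC boxes were found at ALPL (4), BGLAP (2), the canonical SP7 TSS (1) and the proximal RUNX2 promoter (1). The windows of MSX2, SPARC and DLX5 held none of these letters.

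Other genes of bone were counted in 5 lists with 66 genes in all. H3K4me3 of both lines lay near a TSS of 48 of these and merged HA near a TSS of 27, against 63.2% and 32.4% of all protein coding genes. A peak of every replicate lay near a TSS of 18, against 19.2% of all genes. Among 16 further regulators of osteoblasts, 13 had H3K4me3 in both lines (63.2% of all genes) and 8 had merged HA (32.4% of all genes). ATF4, a factor that osteoblasts need to make collagen, had a fold enrichment of 6.47, 9.99 and 13.3 in replicates 1, 2 and 3. RUNX1, a paralogue of RUNX2, had 7.82, 8.46 and 6.33, and MSX1, the paralogue of MSX2, had 6.93, 6.55 and 6.36. SP3 had 5.86, 10.2 and 10.8, WWTR1 4.63, 7.37 and 4.25, and HDAC4, a deacetylase that binds RUNX2, 5.55, 3.34 and 4.47. DLX6, DLX3 and TWIST1 had H3K4me3 in neither line.

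Of 20 genes of BMP and Wnt signalling, 18 had H3K4me3 in both lines and 10 merged HA, against 63.2% and 32.4% of all genes. The Wnt co-receptor LRP6 had a fold enrichment of 6.81, 10.0 and 6.03 and the BMP receptor BMPR2 6.21, 6.83 and 5.81. CTNNB1, which encodes beta-catenin, had 4.70, 5.05 and 4.16. BMP7 had a peak in replicate 1 (5.24), SMURF1 in replicates 1 and 3 (4.76 and 4.25) and NOG in replicates 2 and 3 (4.42 and 4.45). BMP4, SMAD4 and SMAD5 had a peak in every replicate, with mean fold enrichments of 4.29, 4.17 and 3.81.

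Of 18 genes of the bone matrix and its assembly, 10 had H3K4me3 in both lines and 6 merged HA, against 63.2% and 32.4% of all genes. COL1A1, which encodes the main chain of type I collagen, had 4.49, 5.56 and 7.81, whereas COL1A2, which encodes the other chain, had no region of either mark near a TSS. COL5A1 had 4.91, 4.49 and 5.67, FN1 4.35, 4.54 and 3.90, and the collagen hydroxylase subunit P4HA1 3.79, 4.01 and 4.75. The collagen chaperone SERPINH1 had a peak in replicates 2 and 3 (7.55 and 4.73) and BMP1, which trims procollagen, in replicate 3 (7.19).

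All 6 genes of mineralization had H3K4me3 in both lines and 3 had merged HA, against the same 63.2% and 32.4%. The phosphate transporter SLC20A1 had 8.49, 15.1 and 8.93 and the phosphatase PHOSPHO1 5.89, 7 and 4.2, while ANKH had a peak in replicates 2 and 3 (4.87 and 5.26). Of 6 osteocyte genes, 1 had H3K4me3 in both lines, against 63.2% of all genes. All 6 had no HA peak of any list near a TSS, against 59.2% of all genes.

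The lists of other lineages held 21 genes, of which 6 had H3K4me3 in both lines and 4 merged HA, against 63.2% and 32.4% of all genes. None of 4 muscle genes and none of 5 blood genes had either mark near a TSS. In the chondrocyte list, 5 of 7 had H3K4me3 and 3 merged HA, namely SOX9 (7.08, 9.76 and 4.4), SOX6 (4.28, 6.27 and 6.44) and SOX5 (4.16 and 6.87 in replicates 1 and 2). The matching counts of the osteoblast identity genes were 4 of 9 and 1 of 9. These lists therefore cannot check the labelled cell type. In the adipocyte list, 1 of 5 had H3K4me3 in both lines, namely PPARG, which had no HA peak near a TSS. CEBPA had merged HA (7.41, 9.06 and 5.26). Its H3K4me3 near a TSS was found in WT only (523 bp), not in the ProMMP2-3xHA cells that gave the HA peaks.

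**Figure D5:**
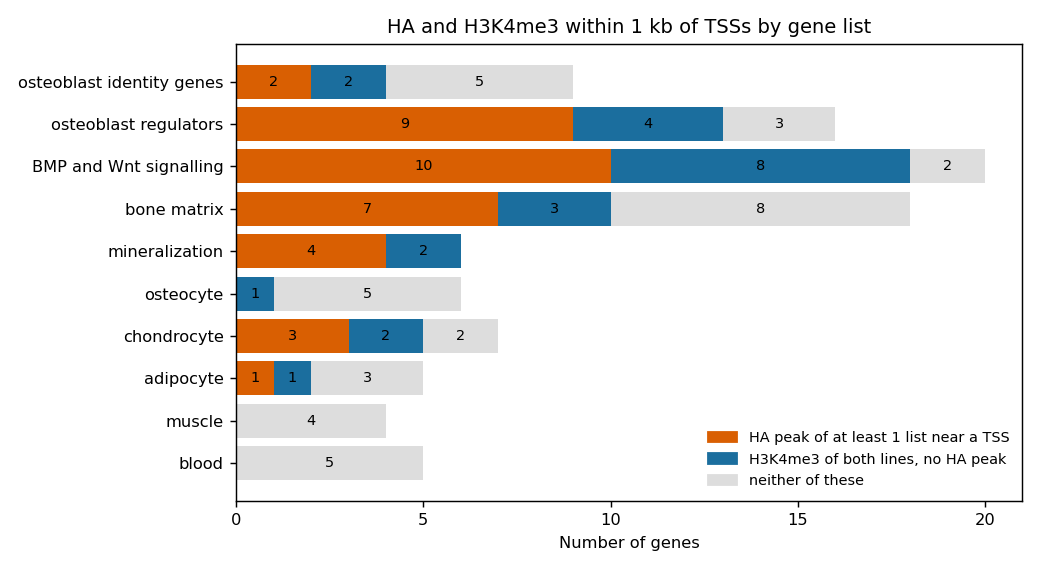
Number of genes (x axis) in each list (rows) with an HA peak of at least 1 list near a TSS (orange), with H3K4me3 of both lines and no HA peak (blue), or with neither of these (grey). In the row of the 9 osteoblast identity genes 2 are orange, 2 blue and 5 grey.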

How the data were processed

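HA and H3K4me3 nChIP-Seq peak lists were used. By the submitters' processing notes and the methods, the authors trimmed reads (Trim Galore 0.6.0), aligned them to GRCh37 (Bowtie2 2.3.5.1), kept a mapping quality of 30 (SAMtools 1.9), removed duplicates (Picard) and called peaks (MACS2 3.0.0a6, q-value 0.05, minimum length 147 bp) against an HA control for the HA replicates. The deposited replicate lists give a score, the fold enrichment as a ratio and −log10 of the p-value and q-value per summit. For merged HA and for H3K4me3 the authors joined narrow and broad calls into intervals without a value, which widens regions.

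Lines with the same interval gave 1 peak, valued by its highest summit. Fragments were recovered from the deposited fold enrichment and −log10 p-value at 99.3%, 99.4% and 98.6% of summits (replicate 1, 2 and 3) by a step tested on simulated summits. TSSs came from GENCODE 44 on GRCh37, and the search used Python 3.11.15 and was checked with bedtools 2.31.1. The report names all 9 genes, and from other lists those with a merged HA peak or the 6 with the highest mean fold enrichment, besides some others. That mean was taken over the replicates with a peak, so a gene with a peak in fewer replicates could rank above one with a peak in every replicate. The genes and lists were chosen with earlier results of these data known. Sign permutation over the 3 replicates was exact. Other windows, TSS definitions, q-values and replicate subsets were tried. Comparisons of H3K4me3 between lines rest on 1 library each and have no test.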

Additional observations from a re-analysis of the deposited data

How the results depend on the processing

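The count of genes with a merged HA peak near a TSS (1, MSX2) was 0 when the peak had to cover the TSS, 0 with peaks of every replicate and 0 without merged peaks that overlap no peak of replicate 1, an alternative chosen after seeing the data. With peaks of both remaining replicates it ranged from 0 to 2, with 2 (MSX2 and SP7) without replicate 1. The count with a peak of every replicate (0) ranged from 0 to 2 in the same way. The count of gene bodies with merged HA (2) was 0 with peaks of every replicate. The mean log2 fold enrichment of MSX2 (−0.12) was −0.07 against all peaks of each list, with −0.16 to −0.08 when 1 replicate was left out. The genes with H3K4me3 numbered 3 to 4 in ProMMP2-3xHA and 3 to 5 in WT over the alternatives run. No paired analysis was possible because the groups compared share fewer than 2 replicate numbers. The planned sign test at peaks of every replicate near a TSS could not be run, since none of the 9 genes had one, and it was run for merged peaks within 10 kb instead. No depth could be recovered for H3K4me3.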
